A study of Mus musculus with 15 samples.

Results

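Messenger RNA of 10 genes that build the Z-disc of skeletal muscle or sense stretch at it was examined in mouse gastrocnemius, a calf muscle. The genes were Ankrd1, Ankrd2, Csrp3, Actn2, Actn3, Myoz1, Myoz2, Ldb3, Tcap and Des, and every probe set whose gene symbol in the array's annotation was one of them was taken. This gave 10 of the 12394 genes that the annotation names and 15 probe sets of the 22690 on the array, with 3 for Ldb3, 2 each for Ankrd1, Myoz1 and Des, and 1 for each other gene. None of the 15 carried the symbol of another gene as well. Gene expression was measured with the MOE430A array in male C57BL/6NHsd mice housed singly for life, with 1 array per mouse and 5 mice in each of 3 groups. The old CR mice were 25 months old and had been kept on caloric restriction (CR) for life, with an intake that differed by 26% from that of the control diet and food enriched so that protein, vitamins and minerals stayed nearly the same. The old mice were 25 months old and the young mice 5 months old, and both had the control diet of 84 kcal per week, which is itself below what mice eat when food is unlimited. Old CR and old mice therefore had the same age and different diets, old and young mice the same diet and different ages, and old CR and young mice differed in both. A deposited value is a linear intensity, scaled array by array so that the mean of each array without its dimmest and brightest 2% is 500.0.

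The Z-disc is the protein plate that borders each sarcomere, the contractile unit of striated muscle, and it holds the actin filaments of neighbouring sarcomeres together from opposite sides. Alpha-actinin cross-links those filaments, the ends of the giant protein titin are anchored there, and a layer of smaller adaptor proteins ties the lattice to signaling enzymes and to the desmin filaments around the myofibril. Some of these proteins also enter the nucleus or are induced when muscle is stretched, which is why the Z-disc is regarded as a site where mechanical load is read. Ankrd2, Csrp3 and Myoz2 are typically more abundant in slow fibers and Actn3 and Myoz1 in fast fibers, and the gastrocnemius of mice is mostly fast.

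The tissue label was checked against 7 genes of skeletal muscle identity, all of which were measured and lay at or above the 94.2nd percentile of probe sets by mean intensity. All 15 probe sets of the Z-disc and stretch-sensing genes lay in the brighter 50% of the array, between the 66.5th and the 100th percentile. One array stood apart from its label. On the first principal component of the brighter 50% of probe sets, which held 28.0% of the variance, old CR mice scored -21.4 to -15.2, old mice 18.9 to 30.3 and 4 young mice -17.8 to -10.3, whereas young replicate 3 scored 26.3, within the old mice. A measure of RNA quality split the arrays in the same way. Control probe sets read Gapdh and Actb near the 3' and the 5' end of the transcript, and the mean log2 excess of the 3' over the 5' signal was -0.297 ± 0.0791 in old CR, 0.127 ± 0.0898 in old and -0.183 ± 0.139 in young mice (SD, n = 5 each), with young replicate 3 at 0.0561, inside the old range of 0.0493 to 0.274. In exact permutation tests, two-sided and adjusted over the 3 comparisons, it differed between old and young mice (p = 0.0159, adjusted p = 0.0238), between old CR and old mice (p = 0.00794, the smallest that 5 against 5 allow, adjusted p = 0.0238) and not detectably between old CR and young mice (p = 0.127). Calls that rest on young replicate 3 are given with and without it below.

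Promoters are shown first for the 4 genes whose levels followed those of slow fiber genes from mouse to mouse, as described further on. Each sequence runs 5' to 3' on the coding strand from 250 bases before the start to 50 bases from it, in the RefSeq annotation of the mouse genome GRCm38.p6. They lie at chr19:42035777-42036076 on the plus strand for Ankrd2, and on the minus strand at chr7:48848002-48848301 for Csrp3, chr13:12340683-12340982 for Actn2 and chr3:123034938-123035237 for Myoz2. Capitals mark matches to the motifs searched on both strands, which were the E-box (CANNTG), the MCAT element (CATTCC), the TATA box in the form TATAAA, and the MEF2 and CArG motifs by name.
Ankrd2: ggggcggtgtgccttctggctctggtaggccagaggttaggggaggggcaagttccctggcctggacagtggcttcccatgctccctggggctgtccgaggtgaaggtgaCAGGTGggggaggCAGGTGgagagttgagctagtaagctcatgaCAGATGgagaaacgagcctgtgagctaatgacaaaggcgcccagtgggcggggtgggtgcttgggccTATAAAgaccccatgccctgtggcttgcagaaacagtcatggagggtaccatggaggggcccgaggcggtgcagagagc
Csrp3: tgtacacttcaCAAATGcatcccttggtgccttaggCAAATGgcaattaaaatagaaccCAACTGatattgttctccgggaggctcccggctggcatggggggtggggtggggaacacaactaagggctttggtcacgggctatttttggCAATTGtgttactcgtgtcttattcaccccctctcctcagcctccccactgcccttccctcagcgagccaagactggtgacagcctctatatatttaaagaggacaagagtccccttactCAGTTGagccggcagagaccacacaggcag
Actn2: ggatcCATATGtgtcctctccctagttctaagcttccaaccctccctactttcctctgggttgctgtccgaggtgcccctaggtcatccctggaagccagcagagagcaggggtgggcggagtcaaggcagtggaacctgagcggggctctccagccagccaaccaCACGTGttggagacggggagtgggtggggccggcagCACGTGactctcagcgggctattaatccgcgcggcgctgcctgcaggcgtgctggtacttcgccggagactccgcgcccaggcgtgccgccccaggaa
Myoz2: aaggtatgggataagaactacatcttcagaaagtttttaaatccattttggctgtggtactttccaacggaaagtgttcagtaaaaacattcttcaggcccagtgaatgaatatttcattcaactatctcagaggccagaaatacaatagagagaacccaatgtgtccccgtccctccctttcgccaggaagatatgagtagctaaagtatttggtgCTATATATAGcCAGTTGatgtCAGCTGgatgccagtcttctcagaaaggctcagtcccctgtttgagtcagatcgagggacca

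Ankrd2 held 3 E-boxes and 1 TATAAA, Csrp3 held 5 E-boxes, Actn2 held 3 E-boxes, and Myoz2 held 2 E-boxes and 1 MEF2 match just before them, and none of the matches shown overlap. The myogenic regulatory factors bind some E-boxes, and the pattern searched does not tell those from the others. It occurs in 72.3% of the 32851 promoters of the same length, against 14.7% for MCAT, 13.6% for TATAAA, 3.19% for MEF2 and 1.63% for CArG. Such matches describe the sequence only. Of the 10 genes, 7 had a promoter in the table, and Csrp3 had 2 starts, of which the one at the 5' end of the gene is shown. Actn3, Myoz1 and Tcap had no entry.

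Across the 3 comparisons none of the 15 probe sets passed an adjusted p under 0.05 in limma, a linear model fitted to log2 intensities of all 22626 non-control probe sets with Benjamini-Hochberg adjustment. Over all probe sets 0.265% passed for old against young, 4.87% for old CR against old and 0.0884% for old CR against young. At an unadjusted p under 0.05 there were 4 of the 15 for old against young (2 higher and 2 lower in old mice), where all probe sets gave 15.5% and the brighter 50% gave 23.3%. For old CR against old there were 8, all higher in old CR mice, where all probe sets gave 21.9% in both directions and 12.5% in the higher direction, and the brighter 50% gave 31.7%. The count was 4 without old replicate 2 (18.7% of all), 5 without old replicate 4 (20.9%) and 5 with median centering (22.1%). Old CR against young gave 5, all higher in old CR mice, where all probe sets gave 12.1% in both directions and 5.83% in the higher one, and the brighter 50% gave 17.7%. This count was 3 without old CR replicate 2 (11.7% of all). The median log2 difference of the 15 was -0.06 for old against young (all probe sets -0.06), 0.32 for old CR against old (all 0.06) and 0.12 for old CR against young (all -0.01). Whatever the p, the old mean was above the young mean for 6 of the 15 (43.0% of all probe sets), the old CR mean above the old mean for 13 (55.3% of all) and the old CR mean above the young mean for 13 (49.2% of all). The 3 comparisons share arrays, so these counts are not independent of each other.

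**Figure D1:**
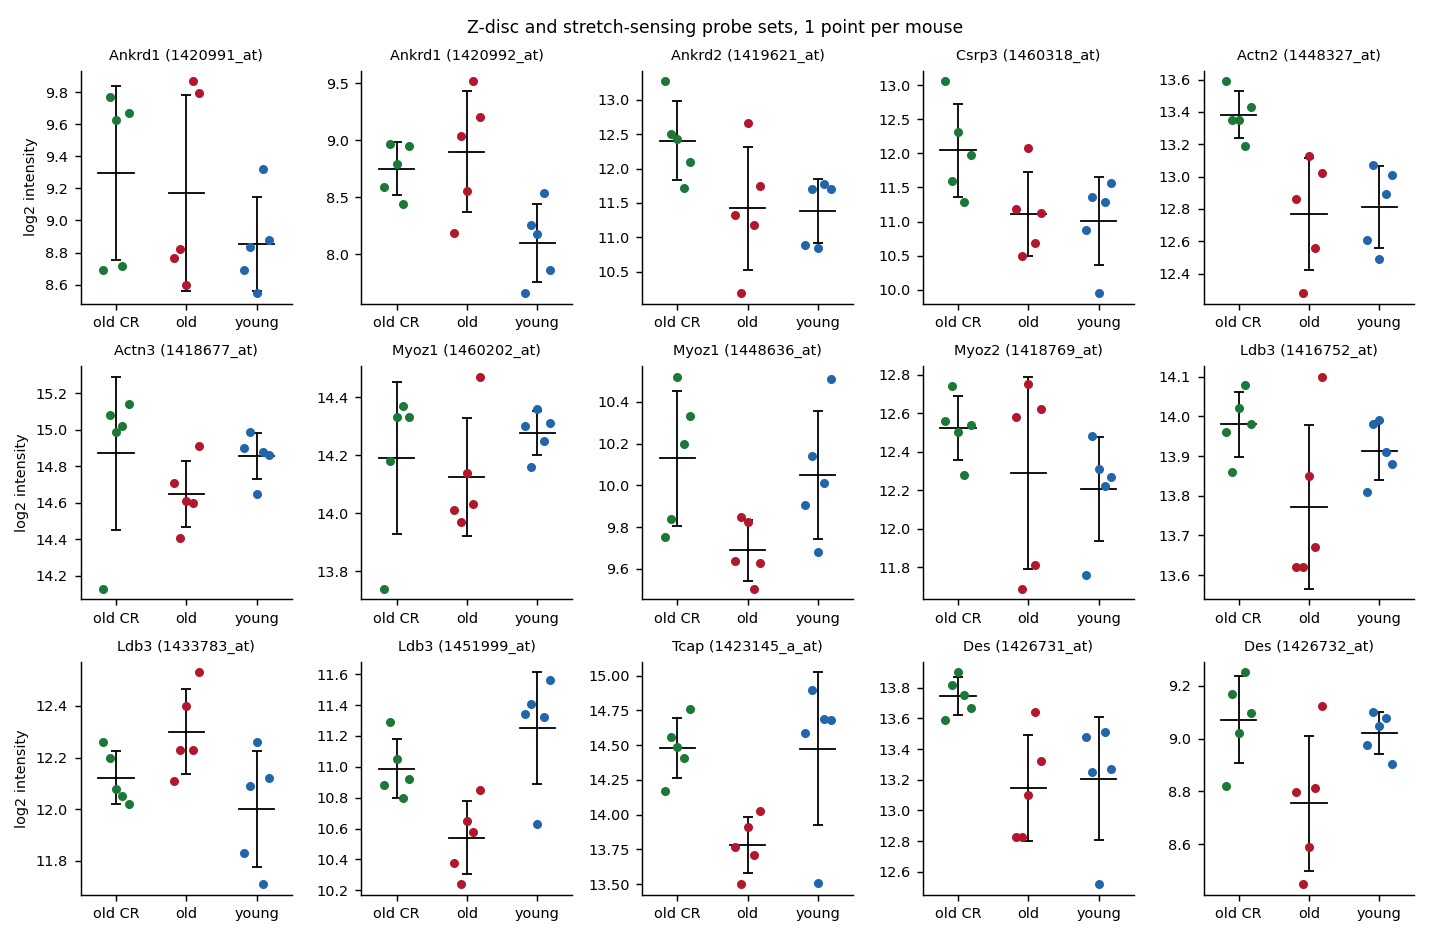
Log2 intensity (vertical axes, each with its own range) of the 15 probe sets of Z-disc and stretch-sensing genes, with 1 point per mouse and the mean ± SD of each group of 5 for old CR, old and young mice. Old CR mice lie above all old mice for Actn2 and Tcap, and 1 young mouse, replicate 3, lies far below the other young mice for Tcap, Des (1426731_at) and Ldb3 (1451999_at).

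Ankrd1, Ankrd2 and Csrp3 encode the proteins most closely tied to the sensing of stretch. Ankrd1 (chr19:36111965-36119844) encodes an ankyrin repeat protein that binds titin's elastic region and can enter the nucleus, and that is induced in stressed heart and denervated or stretched muscle. Its brighter probe set, 1420991_at, read 414, 871, 790, 421 and 815 in old CR mice (replicates 2, 3, 5, 6 and 7, an order kept throughout), 436, 453, 387, 934 and 889 in old mice (replicates 1 to 5) and 413, 457, 374, 640 and 470 in young mice (replicates 1 to 5). Old CR mice split into 2 at 414 and 421 and 3 at 790 to 871, and old mice into 2 at 889 and 934 and 3 at 387 to 453, so that the SD was 226 in old CR and 268 in old mice against 102 in young mice. The log2 difference was 0.32 (SE 0.30, adjusted p = 0.654) for old against young and 0.12 (SE 0.30, adjusted p = 0.851) for old CR against old, both by limma.

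The dimmer probe set of Ankrd1, 1420992_at, gave the largest age difference of the 15. It read 386, 501, 443, 347 and 495 in old CR mice, 291, 524, 376, 732 and 591 in old mice and 202, 305, 288, 372 and 232 in young mice. In 4 of 5 old mice and 4 of 5 old CR mice the value was above that of every young mouse. The log2 difference was 0.80 for old against young (SE 0.24, 95% interval 0.29 to 1.32, unadjusted p = 0.00492, adjusted p = 0.134), 0.65 for old CR against young (SE 0.24, adjusted p = 0.286) and -0.15 for old CR against old (SE 0.24, interval -0.67 to 0.37, adjusted p = 0.766). It passed for old against young when only the brighter 50% of probe sets was tested (adjusted p = 0.0484), as did 1 probe set of Ldb3 described below, where 5.06% of probe sets passed, and it passed in no other setting tried. In the limma fit that took the 3' excess as a covariate its age difference was 1.12, the only one of the 15 with an unadjusted p under 0.05 for that comparison. That is 6.67% of the 15, near the 6.42% of all probe sets, and no probe set of the array passed the adjusted threshold there.

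Ankrd2 (chr19:42035917-42045111), a relative of Ankrd1 that also binds titin and is induced when muscle is lengthened, had the largest standard error of the 15 probe sets. Old CR mice read 9890, 5780, 5510, 3370 and 4380, old mice 2550, 1170, 6460, 2320 and 3450, and young mice 1900, 3320, 1850, 3500 and 3350. Of the 5 old CR mice, 4 were above every young mouse, while old mice spread over both other groups. The log2 difference was 0.98 for old CR against old (SE 0.40, interval 0.13 to 1.84, unadjusted p = 0.0275, adjusted p = 0.168), 1.02 for old CR against young (SE 0.40, adjusted p = 0.324) and 0.03 for old against young (SE 0.40, interval -0.82 to 0.89, adjusted p = 0.979).

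Csrp3 (chr7:48830398-48848051) encodes muscle LIM protein, an adaptor at the Z-disc that binds telethonin and alpha-actinin and is also a cofactor of myogenic transcription factors. It read 8530, 3100, 5090, 2510 and 4010 in old CR mice, 2330, 1440, 4340, 1640 and 2230 in old mice and 1880, 2620, 988, 2510 and 3030 in young mice. As for Ankrd2, 4 of 5 old CR mice were above every young mouse, old CR replicate 2 was the highest of all and old replicate 3 the highest of the old mice. This gave a log2 difference of 0.94 for old CR against old (SE 0.39, interval 0.11 to 1.76, unadjusted p = 0.0296, adjusted p = 0.175), 1.04 for old CR against young (SE 0.39, adjusted p = 0.29) and 0.10 for old against young (SE 0.39, interval -0.73 to 0.93, adjusted p = 0.931). Without old CR replicate 2 the difference between old CR and old mice was 0.77 for Ankrd2 and 0.68 for Csrp3. Without young replicate 3 Csrp3 had 0.77 for old CR against young and -0.16 for old against young.

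Alpha-actinin is the cross-linker of the Z-disc and is encoded in muscle by Actn2 (chr13:12269426-12340732) and Actn3 (chr19:4861216-4877909), the second typically in fast fibers. Actn2 read 12300, 10400, 10500, 9370 and 11000 in old CR mice, 7420, 4960, 8970, 6040 and 8330 in old mice and 6240, 8610, 5760, 7590 and 8240 in young mice. The lowest old CR mouse was above the highest old and the highest young mouse. Groups did not overlap for 2 of the 15 probe sets in old CR against old (8.89% of all probe sets), 2 in old CR against young (3.57% of all) and none in old against young (3.61% of all). The log2 difference of Actn2 was 0.61 for old CR against old (SE 0.17, interval 0.24 to 0.99, unadjusted p = 0.00335, adjusted p = 0.0588), 0.57 for old CR against young (SE 0.17, interval 0.20 to 0.94, unadjusted p = 0.00557, adjusted p = 0.211) and -0.04 for old against young (SE 0.17, interval -0.42 to 0.33, adjusted p = 0.935). The adjusted p for old CR against old lay between 0.0439 and 0.125 when each array was left out in turn, and it was 0.0201 when only the brighter 50% of probe sets was tested, where 3 of the 15 (Actn2, Tcap and Des at 1426731_at) and 15.7% of the probe sets passed. With the 3' excess of the control probe sets as a covariate Actn2 had 0.43 for old CR against old and 0.52 for old CR against young.

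Actn3 had 1 mouse far from the others of its group. It read 18000, 34700, 32400, 33300 and 36200 in old CR mice, 26700, 21700, 25000, 24900 and 30800 in old mice and 30500, 32500, 25700, 30200 and 29800 in young mice. Old CR replicate 2 had the lowest value of all 15 mice, while the other 4 old CR mice were above every old mouse. The log2 difference between old CR and old mice was 0.23 (SE 0.18, interval -0.16 to 0.61, adjusted p = 0.496), and 0.41 without old CR replicate 2 (unadjusted p = 0.00546). In the same mouse the mean log2 of 9 fast fiber genes was 14.46, the lowest of the old CR mice, and its Actn2, Ankrd2 and Csrp3 were the highest of all mice. The part of fiber type or of this array in those values was not tested.

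**Figure D2:**
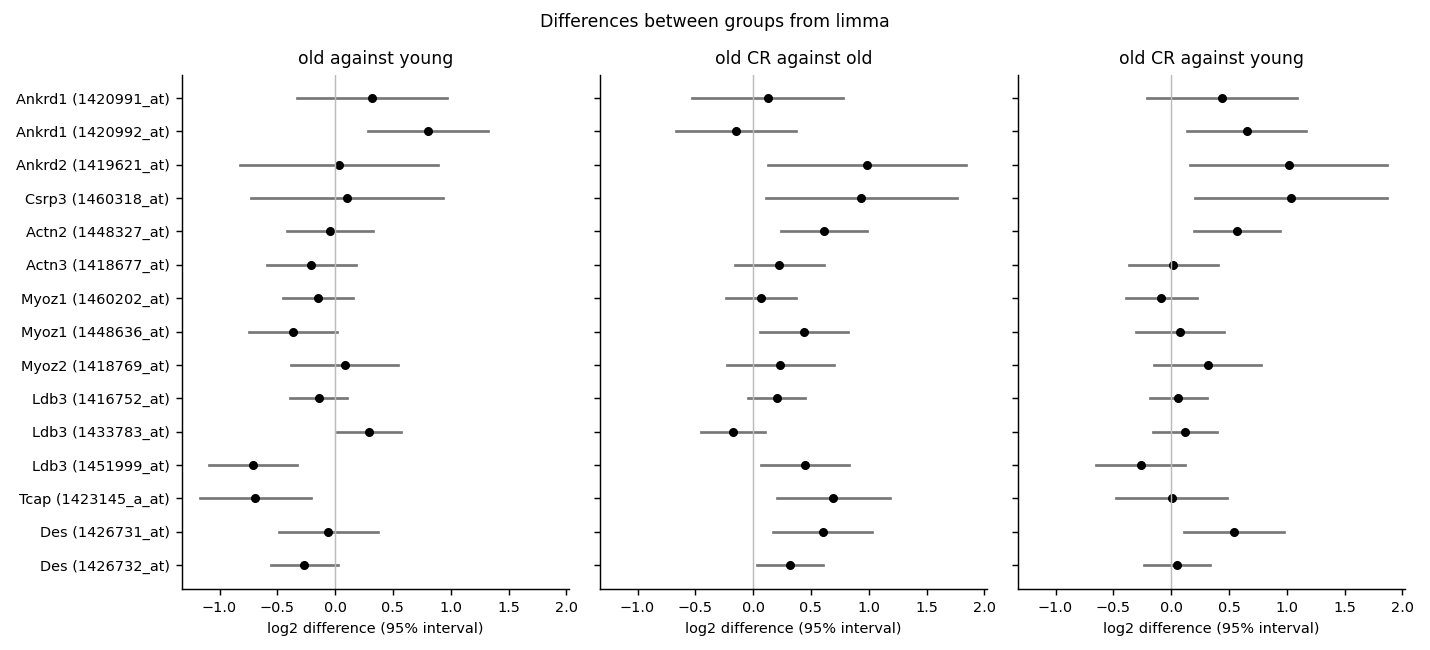
Log2 differences from limma (points) with 95% intervals (lines) for each probe set in old against young, old CR against old and old CR against young mice, with 5 mice per group. Ankrd2 and Csrp3 have the largest differences in both comparisons with old CR mice and the widest intervals, and no probe set passed an adjusted p under 0.05.

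Myozenins, also called calsarcins, tether the phosphatase calcineurin to alpha-actinin, with Myoz1 (chr14:20649102-20656540) in fast fibers and Myoz2 (chr3:123006206-123035003) in slow fibers and heart. The brighter probe set of Myoz1, 1460202_at, read 13700, 18600, 20600, 21200 and 20500 in old CR mice, 16500, 16100, 18100, 16700 and 22700 in old mice and 20100, 18300, 21000, 19500 and 20300 in young mice. Old CR replicate 2 was again lowest, as for Actn3. The log2 differences of this probe set were 0.07 for old CR against old (interval -0.24 to 0.37, adjusted p = 0.826) and -0.15 for old against young (interval -0.45 to 0.15, adjusted p = 0.645).

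The dimmer probe set of Myoz1, 1448636_at, read 863, 916, 1470, 1180 and 1290 in old CR mice, 796, 921, 905, 727 and 792 in old mice and 960, 1130, 821, 1030 and 1460 in young mice. Old mice formed the narrowest group, with an SD of 82.5 against 254 in old CR and 238 in young mice. By limma the log2 difference was 0.44 for old CR against old (SE 0.18, unadjusted p = 0.0267, adjusted p = 0.165) and -0.36 for old against young (SE 0.18, adjusted p = 0.35).

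Myoz2 read 6050, 6860, 5780, 4960 and 5960 in old CR mice, 6100, 3300, 6890, 3580 and 6300 in old mice and 3460, 5710, 5090, 4760 and 4930 in young mice. Old mice split into 3 with values like those of old CR mice and 2, replicates 2 and 4, near the lowest young mouse. In log2 terms the difference was 0.24 for old CR against old (SE 0.22, interval -0.23 to 0.70, adjusted p = 0.565) and 0.08 for old against young (SE 0.22, interval -0.38 to 0.54, adjusted p = 0.896).

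Levels of Actn2, Myoz2 and Ankrd2, and by rank also of Csrp3, followed the slow fiber genes of the muscle from mouse to mouse within the groups. The slow fiber measure was the mean log2 of 8 genes (Myh7, Tnnt1, Tnnc1, Tnni1, Myl2, Myl3, Atp2a2 and Tpm3), and both it and each gene's log2 level were taken as deviations from the mean of the mouse's group, so that differences between groups play no part. Over 15 mice Pearson's r was 0.832 for Myoz2 (p = 0.00106 from 100000 permutations within groups, two-sided), 0.808 for Actn2 (p = 0.00197) and 0.693 for Ankrd2 (p = 0.00285), each with an adjusted p = 0.0095 over the 10 relations computed. Spearman's rho was 0.804 for Myoz2 (permutation p = 0.00123), 0.825 for Actn2 (p = 0.0023) and 0.693 for Ankrd2 (p = 0.0105), with adjusted p = 0.0115, 0.0115 and 0.0263 in that order of genes. For Csrp3 r was 0.593 (permutation p = 0.0279, adjusted p = 0.0697) and rho 0.671 (permutation p = 0.0101, adjusted p = 0.0263). When young replicate 1 and old replicate 4, the mice with the most extreme slow fiber measure, were left out, r was 0.747 for Myoz2, 0.896 for Actn2, 0.789 for Ankrd2 and 0.739 for Csrp3, so that none of these relations rested on that pair.

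The other 6 genes had r between -0.178 and 0.342 (Des and Tcap), with Actn3 at 0.0361 and Myoz1 at -0.119, and permutation p-values between 0.38 and 0.867. Actn3 had r = 0.412 without old CR replicate 2, the mouse far from its group (adjusted p = 0.425). Tcap had r = 0.596 and Des r = 0.387 without young replicate 1 and old replicate 4. The mice share arrays between the gene and the slow fiber measure, and bulk muscle cannot tell fewer fibers of a type from less RNA per fiber.

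**Figure D3:**
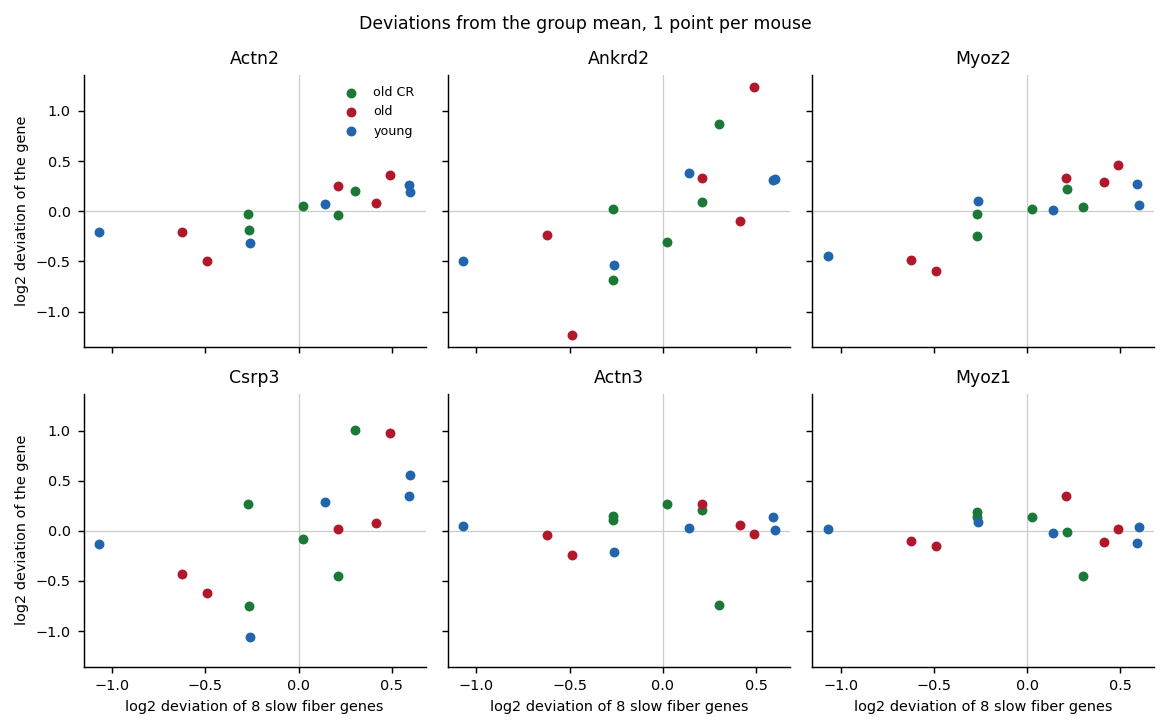
Deviation of a gene's log2 intensity from its group mean (vertical axes) against that of the mean of 8 slow fiber genes (horizontal axes), with 1 point per mouse for old CR, old and young mice. Points for Actn2, Ankrd2, Myoz2 and Csrp3 climb along the slow fiber axis (r = 0.808, 0.693, 0.832 and 0.593), and those for the fast fiber genes Actn3 and Myoz1 have r = 0.0361 and -0.119, with Actn3 at 0.412 when old CR replicate 2 is left out.

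The slow fiber measure itself was highest in old CR mice. It was 13.07 to 13.64 in old CR, 11.80 to 12.91 in old and 11.51 to 13.18 in young mice, so that every old CR mouse was above every old mouse. The median log2 difference of the 8 slow fiber genes was 0.77 for old CR against old and 0.78 for old CR against young, and all 8 means were higher in old CR mice in both comparisons. Other muscle genes were also higher in old CR than in old mice. The means of 9 of 9 fast fiber genes were (median 0.29, 4 at an unadjusted p under 0.05), as were those of 6 of 7 genes of skeletal muscle identity (median 0.31, 4 at an unadjusted p under 0.05), against 6 of the 8 slow fiber genes at that p. In old CR against old, 2 of the 8 passed the adjusted threshold in limma. Tnnc1, slow troponin C, averaged 11100 ± 1950 in old CR and 4260 ± 1470 in old mice (log2 difference 1.45, adjusted p = 0.027), and Tpm3, slow tropomyosin, 8550 ± 1380 in old CR and 3380 ± 1450 in old mice (1.42, adjusted p = 0.0486). When arrays were left out 1 at a time, the Tnnc1 call was lost in 5 of 15 fits (adjusted p up to 0.0641) and the Tpm3 call in 10 (up to 0.109). Of 9 fast fiber genes measured, Myh1, a fast myosin heavy chain, also rose, with 19700 ± 1550 in old CR and 13700 ± 2030 in old mice (0.53, adjusted p = 0.0297), and its call was lost in 7 of those 15 fits (up to 0.07). With the 3' excess as a covariate the differences were 0.996 for Tnnc1 (adjusted p = 0.854), 1.88 for Tpm3 (0.761) and 0.74 for Myh1 (0.62), so that none of the 3 passed. How much of the higher Actn2, Ankrd2 and Csrp3 in old CR mice goes with slow fiber content was not tested.

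Ldb3 (chr14:34526699-34590314) encodes ZASP or Cypher, a PDZ and LIM protein that binds alpha-actinin and is made in several isoforms by splicing and by alternative ends. Its brightest probe set, 1416752_at, read 15900, 14800, 16700, 17300 and 16100 in old CR mice, 12600, 12600, 14800, 13100 and 17600 in old mice and 14400, 16200, 16300, 15400 and 15100 in young mice. Old replicates 1, 2 and 4 were below every other mouse and old replicate 5 was the highest of all, and the log2 difference was 0.20 for old CR against old (SE 0.12, adjusted p = 0.324) and -0.14 for old against young (SE 0.12, adjusted p = 0.584).

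The probe set 1433783_at read 4900, 4710, 4320, 4250 and 4170 in old CR mice, 4430, 4790, 5390, 4790 and 5900 in old mice and 3650, 4370, 4900, 3360 and 4450 in young mice. It was on average highest in old mice, with a log2 difference of 0.29 for old against young (SE 0.13, interval 0.02 to 0.57, unadjusted p = 0.0391, adjusted p = 0.293) and -0.18 for old CR against old (SE 0.13, adjusted p = 0.461). The third, 1451999_at, had the opposite order and read 1880, 2510, 2130, 1780 and 1940 in old CR mice, 1330, 1210, 1610, 1530 and 1850 in old mice and 2590, 2720, 1590, 2560 and 3010 in young mice. All old mice were below the 4 young mice other than replicate 3, which read 1590, within the old group. Its log2 difference was -0.71 for old against young (SE 0.18, interval -1.09 to -0.33, unadjusted p = 0.00137, adjusted p = 0.0945), 0.45 for old CR against old (SE 0.18, unadjusted p = 0.0254, adjusted p = 0.162) and -0.26 for old CR against young (SE 0.18, adjusted p = 0.61).

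Because the 3 probe sets of Ldb3 are read on the same array, their differences within a mouse were also taken, a comparison chosen after the values were seen and given without a test. The log2 difference between 1433783_at and 1451999_at was 0.908 to 1.38 in old CR mice, 1.64 to 1.98 in old mice and 0.394 to 1.62 in young mice, with young replicate 3 at 1.62 and the other 4 young mice at 0.394 to 0.681. Against 1416752_at, 1433783_at stood at -2.02 to -1.65 in old CR mice, -1.58 to -1.40 in old mice and -2.20 to -1.74 in young mice, so that old mice overlapped neither other group. Both quantities set probe sets of this gene against each other and do not show which of them differed. The share of probe set pairs on the whole array that separate groups in this way was not computed. Where each probe set lies in the transcripts of Ldb3 is not given in the sources used here. The 3' excess of the control probe sets set old mice and young replicate 3 apart from the others, as the first quantity did. For the second quantity young replicate 3, at -1.74, lay with the young mice. The part of the 3' excess in the Ldb3 values was not tested.

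**Figure D4:**
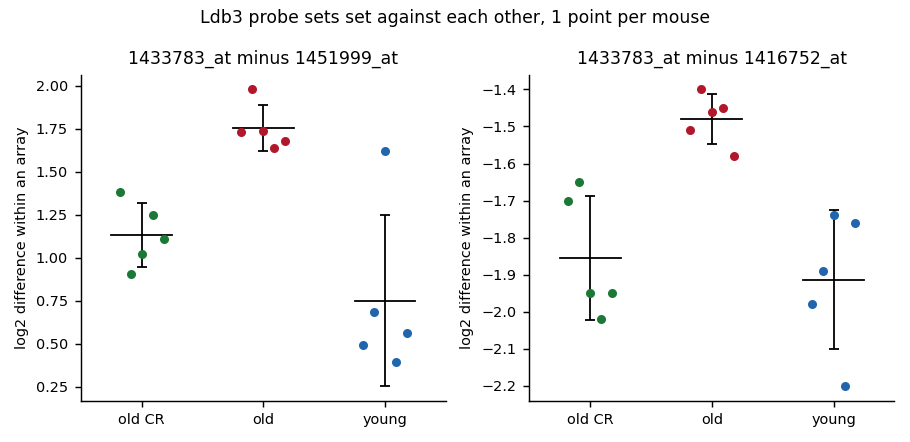
Log2 difference within an array between Ldb3 probe sets 1433783_at and 1451999_at (left) and between 1433783_at and 1416752_at (right), with 1 point per mouse and the mean ± SD of each group of 5 for old CR, old and young mice. Old mice lie at 1.64 to 1.98 on the left and -1.58 to -1.40 on the right. Young replicate 3 lies at 1.62 on the left, beside the old mice, and at -1.74 on the right, with the young mice.

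Tcap (chr11:98383811-98384953) encodes telethonin, which caps and joins the ends of titin at the edge of the Z-disc. It read 18400, 24100, 23100, 21800 and 27700 in old CR mice, 14000, 11600, 15400, 13400 and 16700 in old mice and 24700, 30500, 11700, 26400 and 26300 in young mice. All old CR mice were above all old mice, and 4 young mice were at 24700 or more while young replicate 3 read 11700, next to the lowest old mouse. This gave a log2 difference of -0.69 for old against young (SE 0.23, interval -1.17 to -0.21, unadjusted p = 0.00839, adjusted p = 0.16), 0.69 for old CR against old (SE 0.23, interval 0.21 to 1.18, unadjusted p = 0.00816, adjusted p = 0.0904) and 0.00 for old CR against young (SE 0.23, interval -0.48 to 0.49, adjusted p = 0.997).

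Leaving out young replicate 3 brought Tcap and Ldb3 past the threshold. This array was singled out after the values were seen. It was the lowest young mouse for Tcap and for 1451999_at, so leaving it out widens both age differences in advance. Without that array, Tcap fell in old mice against young mice with a log2 difference of -0.93 (adjusted p = 0.00324) and the Ldb3 probe set 1451999_at with -0.87 (adjusted p = 0.00565), the only 2 of the 15 that passed in limma, where 4.72% of all probe sets did. For old CR against old the same fit called 3 of the 15, which were Tcap (adjusted p = 0.0103), Des at 1426731_at (0.0358) and Actn2 (0.0439), all higher in old CR mice, where 7.32% of all probe sets passed. With array weights, which gave young replicate 3 the lowest weight of 0.563, Tcap (-0.78, adjusted p = 0.0369) and 1451999_at (-0.78, adjusted p = 0.0221) also passed for old against young, where 3.4% of all did. The weights play down the same array, so this is not a separate result. Without young replicate 3 the 3' excess was -0.277 to -0.177 in young and 0.0493 to 0.274 in old mice, with no overlap.

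When the 3' excess entered limma as a covariate, none of the 15 passed in any comparison, and 1 for old against young, 0 for old CR against old and 2 for old CR against young had an unadjusted p under 0.05, where 6.42%, 6.46% and 10.1% of all probe sets did. That fit called few probe sets of the whole array, with 0, 0 and 8 of 22626 past the adjusted threshold in the same order. The log2 difference of Tcap was then 0.01 for old against young and -0.27 for old CR against old, and that of 1451999_at was -0.29 for old against young and -0.13 for old CR against old. The covariate differs between the groups, so in that fit age or diet and RNA quality can be told apart only in part.

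**Figure D5:**
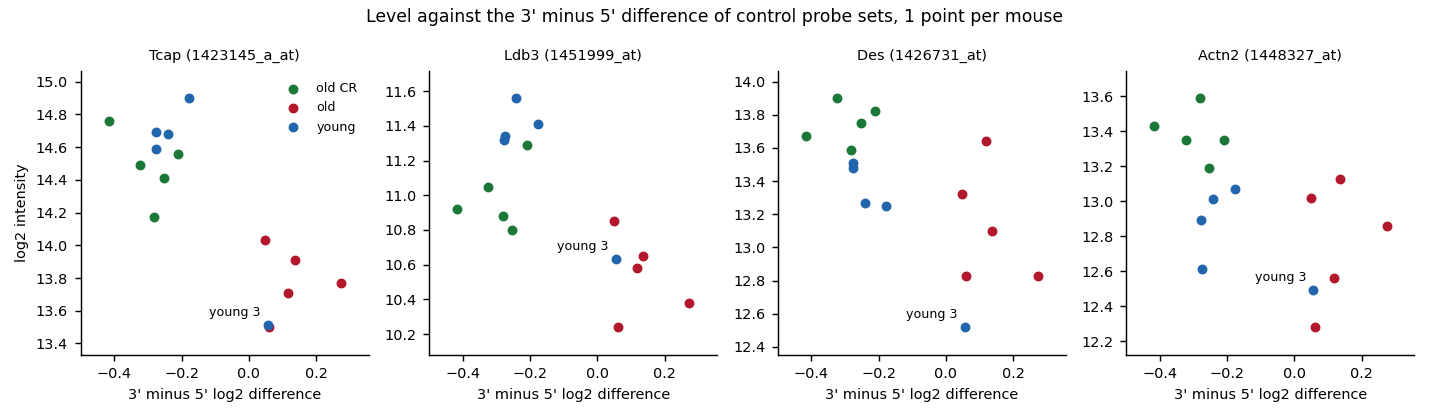
Log2 intensity of Tcap, Ldb3 (1451999_at), Des (1426731_at) and Actn2 (vertical axes) against the log2 excess of 3' over 5' signal in the Gapdh and Actb controls (horizontal axes), with 1 point per mouse for old CR, old and young mice. Old mice and young replicate 3 lie at 0.0493 or more on the horizontal axis, old CR mice at -0.417 to -0.21, and the other 4 young mice at -0.277 to -0.177.

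Des (chr1:75360292-75368579) encodes desmin, the intermediate filament that links neighbouring Z-discs to each other and to the cell membrane. Its brighter probe set, 1426731_at, read 12400, 14500, 15300, 13800 and 13000 in old CR mice, 7290, 7280, 8780, 12800 and 10200 in old mice and 11400, 9770, 5870, 11600 and 9850 in young mice. Old CR mice were above all young mice and above all old mice but replicate 4, and young replicate 3 was the lowest of all. By limma the log2 difference was 0.60 for old CR against old (SE 0.20, interval 0.18 to 1.03, unadjusted p = 0.00917, adjusted p = 0.0955), 0.54 for old CR against young (SE 0.20, interval 0.11 to 0.97, unadjusted p = 0.0167, adjusted p = 0.285) and -0.06 for old against young (SE 0.20, interval -0.49 to 0.37, adjusted p = 0.92). Without young replicate 3 the log2 difference was 0.37 for old CR against young and -0.23 for old against young. With the 3' excess as a covariate it was -0.20 for old CR against old and 0.53 for old against young.

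The dimmer probe set of Des, 1426732_at, read 452, 576, 519, 609 and 547 in old CR mice, 445, 349, 385, 450 and 557 in old mice and 504, 549, 529, 540 and 479 in young mice. In 4 of 5 old mice it was below every young mouse. In log2 terms the difference was 0.32 for old CR against old (SE 0.14, unadjusted p = 0.0332, adjusted p = 0.185) and -0.27 for old against young (SE 0.14, adjusted p = 0.359).

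Genes with a profile most like that of each of the 10 genes over the 15 arrays were found by Pearson's correlation of log2 values, as a description without a test. Ankrd2 was most like Actn2 (r = 0.927) and Csrp3 (0.911). Csrp3 was most like Ankrd2 (0.911), followed by Smtnl1 (0.898) and Actn2 (0.891). Actn2 was most like Ankrd2 (0.927), followed by the slow troponins Tnnc1 (0.919) and Tnni1 (0.908), and Myoz2 was most like the slow fiber genes Atp2a2 (0.851), Myl3 (0.842) and Myh7 (0.837). Actn3 was most like the fast troponin Tnni2 (0.954) and the fast myosin Myh4 (0.903), followed by Scgb1b27 (0.896). Myoz1 was most like the muscle enolase Eno3 (0.925), followed by Anapc5 (0.878) and Tnni2 (0.859). Tcap was most like a probe set of Capzb (0.972), which encodes the actin capping protein of the Z-disc, and Csrp1 (0.957), a LIM protein. That probe set was not the brightest of Capzb. The brightest had log2 differences in limma of -0.272 for old CR against old and -0.0891 for old against young. Tcap had 0.693 and -0.689, so the likeness holds for that probe set and not for Capzb as a gene. Des was most like Mapre3 (0.935), which encodes a microtubule end-binding protein. Ankrd1 was most like Ddost (0.861), Ptp4a3 (0.845) and Rab2a (0.833), and Ldb3 most like Col11a2 (0.843), Rps3 (0.834) and Cox6b1 (0.833). None of these is a fiber or Z-disc gene named here. All points share arrays, and these correlations include the differences between groups.

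Other genes of the same structures were taken from lists that did not use these differences as a criterion, although earlier results of these data were known when they were made. Of 24 other genes of the Z-disc scaffold 19 were measured, and for old CR against old 2 passed in limma, both lower in old CR mice, while none passed in the other comparisons, where 6 for old against young and 4 for old CR against young had an unadjusted p under 0.05. Actn1, a non-muscle alpha-actinin, averaged 481 ± 40.0 in old CR and 752 ± 129 in old mice (log2 difference -0.63, adjusted p = 0.0287), and Actn4, another non-muscle alpha-actinin, 1650 ± 299 in old CR and 2390 ± 201 in old mice (-0.55, adjusted p = 0.0397). Actn2, for comparison, had 0.61. With arrays left out 1 at a time the Actn1 call was lost in 6 of 15 fits (adjusted p up to 0.0681) and the Actn4 call in 10 (up to 0.0878). With the 3' excess as a covariate they had -0.39 (adjusted p = 0.874) and -0.415 (0.86). Synpo2, which encodes myopodin, an actin-binding protein of the Z-disc, averaged 4560 ± 852 in old CR, 2180 ± 462 in old and 4790 ± 1980 in young mice and did not pass (1.07 for old CR against old, adjusted p = 0.0815). The median of the 19 was 0.10 for old CR against old and -0.09 for old against young.

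Of 17 genes of LIM and titin-linked signaling 13 were measured, and 1 passed for old CR against old. Csrp1, a relative of Csrp3 best known in smooth muscle, averaged 565 ± 101 in old CR, 281 ± 16.8 in old and 587 ± 213 in young mice, with log2 differences of 0.99 for old CR against old (adjusted p = 0.0295) and -0.98 for old against young (adjusted p = 0.0769). The first call was lost in 7 of 15 fits with 1 array left out (adjusted p up to 0.066), and with the 3' excess as a covariate the difference was 0.08 (adjusted p = 0.983). The summed level of 7 smooth muscle genes was 6220 to 7260 in old CR, 6370 to 8170 in old and 6870 to 8070 in young mice, and none of the 7 passed in any comparison, with 1, 2 and 0 at an unadjusted p under 0.05 for old against young, old CR against old and old CR against young. Of 13 targets of YAP and TEAD, a tension-responsive coactivator and the MCAT-binding factors through which it acts, none passed in any comparison, and 3 of the 13 had an unadjusted p under 0.05 in each of them.

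Among intermediate filaments and their partners 7 of 8 were measured, and 3 passed for old CR against old. Nes, which encodes nestin, a partner of desmin in developing and regenerating muscle and at its nerve and tendon junctions, averaged 1070 ± 188 in old CR, 615 ± 65.2 in old and 858 ± 138 in young mice (0.78 for old CR against old, adjusted p = 0.0164), and its call held when each of the 15 arrays was left out in turn. It was lost with the 3' excess as a covariate (0.69, adjusted p = 0.788). Both keratins that passed were lower in old CR mice. Krt18 averaged 70.7 ± 35.8 in old CR and 212 ± 88.2 in old mice (-1.64, adjusted p = 0.0471) and Krt19 32.2 ± 14.3 in old CR and 79.6 ± 14.5 in old mice (-1.41, adjusted p = 0.0271), the second from a dim probe set at the 19.5th percentile. Of 15 fits with 1 array left out, 12 lost the Krt18 call (adjusted p up to 0.0996) and 6 the Krt19 call (up to 0.0599).

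Markers of other cells in the muscle were counted in the same fit. In old CR against old, 1 endothelial gene of 7 passed, Vwf, which was lower in old CR mice, and none passed of 10 fibroblast and tendon genes, 4 adipocyte genes, 6 macrophage genes, 5 B and plasma cell genes and 3 Schwann cell genes, of which 1, 3, 1, 2 and 0 in that order had an unadjusted p under 0.05. Of the 7 endothelial genes, 1 was higher and 1 lower in old CR mice at that unadjusted p. The means of 3 of the 7 were higher in old CR mice. Among these, Pecam1 averaged 769 ± 82.8 in old CR and 450 ± 102 in old mice. The Vwf call held when each of the 15 arrays was left out in turn, and was lost with the 3' excess as a covariate (-0.83, adjusted p = 0.81). For old CR against young, 1 of the 10 fibroblast and tendon genes, Col1a2, passed and was lower in old CR mice, a call lost in 13 of 15 fits with 1 array left out (adjusted p up to 0.136), and their summed level was 16400 to 23100 in old CR, 19300 to 31300 in old and 26100 to 40300 in young mice. At an unadjusted p under 0.05, 6 of the 10 were lower and 0 higher in old CR than in young mice (median log2 difference -0.597). In old against young mice 6 were also lower and 0 higher (median -0.77). Of 11 genes of denervation and embryonic muscle, Actc1, cardiac actin, was lower in old than in young mice (-2.16, adjusted p = 0.0417) and higher in old CR than in old mice (1.62, adjusted p = 0.0296), with the first call lost in 12 (adjusted p up to 0.11) and the second in 5 (up to 0.065) of 15 fits with 1 array left out. At an unadjusted p under 0.05 in limma, 3 of the 11 were higher and 2 lower in old than in young mice. For old CR against old, 2 of them were higher and 0 lower. The means of 5 of the 11 were higher in old than in young mice. Among these, Chrna1 averaged 670 ± 155 in old and 449 ± 26.2 in young mice. Each of the 13 calls given for listed genes outside the 10 was lost with the covariate (adjusted p 0.131 to 0.983). The part of these cells in the levels of the Z-disc genes was not tested.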

How the data were processed

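RNA of 15 gastrocnemius muscles was read on 1 MOE430A array each. Poly(A) RNA was copied to biotin-labelled cRNA and hybridized, and the authors averaged repeated scans of an array. The values deposited by the authors are linear intensity per probe set, scaled per array (mean 500.0 without 2% at each end), whereas the methods describe RMA. The submitters' processing notes name RMA and MAS5, with versions not given in the sources used here. The design was written for log2 values and foresaw taking log2 of a linear table, which was done with no pseudocount or further normalization. Of 22690 probe sets, 64 controls did not enter the tests. The model (limma 3.58.1, R 4.3.3) had 1 coefficient per group over all 15 arrays, moderated by eBayes, and p-values were adjusted by Benjamini-Hochberg within a comparison and called under 0.05. Permutations used SciPy 1.17.1 and NumPy 2.4.6 in Python 3.11.15. Tables were handled with pandas 2.3.3 and plots drawn with Matplotlib 3.10.9. The main probe set of a gene was its brightest. All 10 genes were named with every probe set, and of each other list at most the 4 genes with the smallest adjusted p. Genes and lists were chosen with earlier results of these data known. Alternatives were the brighter 50% of probe sets, median centering, quantile normalization, a pseudocount of 50, only the 2 groups compared, a variance trend with robust eBayes, array weights, a replicate block, the 3' excess as a covariate, an adjusted p under 0.10 and leaving out each array. Precision is limited by the number of arrays. The labels call each sample a separate mouse.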

Additional observations from a re-analysis of the deposited data

Results flagged for a closer look

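Of 45 sets of 5 log2 values (15 probe sets in 3 groups), 4 held a mouse whose gap to its nearest neighbour, as a share of the range of its group, was above Dixon's critical value of 0.71 for 5 values. The shares belong to the log2 scale, and the intensities beside them are linear. On the linear values the shares of young replicate 3 would fall below 0.71. About 5% of such sets are marked in this way by chance. Young replicate 3 was the lowest young mouse in 3 of them, with 11700 for Tcap (share 0.779), 5870 for Des at 1426731_at (share 0.746) and 1590 for Ldb3 at 1451999_at (share 0.744). The same array scored 26.3 on the first principal component, among the old mice, and its 3' minus 5' difference of 0.0561 lay in the range of old mice. Old CR replicate 2 was the lowest old CR mouse for Actn3, with 18000 (share 0.843), and had the lowest mean of fast fiber genes of its group, at 14.46 on the log2 scale.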

How the results depend on the processing

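Counts of Z-disc and stretch-sensing probe sets that passed in limma, 0 of 15 in each comparison as reported, changed as follows for old against young and old CR against old, and were 0 for old CR against young in every setting. Testing only the brighter 50% of probe sets gave 2 and 3, an adjusted p under 0.10 gave 1 and 3, a variance trend with robust eBayes 1 and 3, and array weights 2 and 1, while a pseudocount of 50 gave 0 and 1, as did a fit of only the 2 groups compared. Over all probe sets these settings called 5.06%, 1.68%, 1.85%, 3.4%, 0.999% and 0.0265% for old against young and 15.7%, 10.1%, 7.36%, 5.93%, 6.66% and 4.55% for old CR against old, in that order. Leaving out young replicate 3 and old CR replicate 2 together, a choice made after seeing the data, gave 2 (Tcap and Ldb3 at 1451999_at, 4.78% of all) and 2 (Tcap and Des at 1426731_at, 6.01% of all). Leaving out each array in turn gave 0 to 2, 0 to 3 and 0 to 0, with counts above 0 only without young replicate 3. Median centering, quantile normalization, the replicate block and the 3' excess as a covariate gave 0 in all 3 comparisons. The number of genes related to the slow fiber measure was 3 under every scaling, pseudocount and probe set choice and 3 to 4 when each array was left out, Csrp3 being added without young replicate 1, young replicate 3, old CR replicate 3 or old CR replicate 5.

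Under other settings 35 values changed sign, and with an array left out 31 did, among 11 of the 45 differences. For old against young the sign turned with the 3' covariate for Actn2 (0.0868), Myoz1 at 1448636_at (0.0314), Myoz2 (-0.231), Tcap (0.0109) and Des at 1426731_at (0.526), with median centering for Actn2 (0.0458) and Des at 1426731_at (0.0295), with quantile normalization for Myoz1 at 1460202_at (0.00527), and without the 2 arrays for Ankrd2 (-0.0985) and Csrp3 (-0.162). For old CR against old it turned with the covariate for Ankrd1 at 1420991_at (-0.658), Actn3 (-0.00766), Myoz1 (-0.0442 at 1460202_at and -0.0982 at 1448636_at), Ldb3 (0.0676 at 1433783_at and -0.13 at 1451999_at), Tcap (-0.266) and Des at 1426731_at (-0.199), with quantile normalization for Actn3 (-0.0916), and for Myoz1 at 1460202_at with quantile normalization (-0.126), median centering (-0.0223) and the replicate block (-0.0753). In old CR against young it turned with the covariate for Actn3 (-0.0443), Myoz1 at 1448636_at (-0.0668) and Tcap (-0.255), with quantile normalization for Actn3 (-0.127), Ldb3 at 1416752_at (-0.0022) and Tcap (-0.0186), with the replicate block for Actn3 (-0.107), Myoz1 at 1448636_at (-0.083), Ldb3 at 1416752_at (-0.0319) and Tcap (-0.0282), with array weights for Tcap (-0.0831), and without the 2 arrays for Myoz1 at 1460202_at (0.0493) and Tcap (-0.16). With each array left out in turn, old against young ranged over -0.274 to 0.342 for Ankrd2, -0.162 to 0.259 for Csrp3, -0.134 to 0.0789 for Actn2, -0.0338 to 0.232 for Myoz2 and -0.232 to 0.0177 for Des at 1426731_at. Old CR against old then ranged over -0.0197 to 0.298 for Ankrd1 at 1420991_at and -0.329 to 0.00465 at 1420992_at, and old CR against young over -0.0489 to 0.204 for Actn3, -0.13 to 0.0283 for Myoz1 at 1460202_at, -0.0188 to 0.193 for Myoz1 at 1448636_at and -0.237 to 0.109 for Tcap. The cause was not tested.

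Same-numbered mice of different groups did not deviate together (correlations of -0.281 to 0.0943), so the samples share only a number, and the replicate block called 2 higher and 2 lower of all 22626 probe sets for old CR against old and 0 in the other comparisons. With the block 3, 2 and 3 of the 15 had an unadjusted p under 0.05 for old against young, old CR against old and old CR against young (4, 8 and 5 as reported), where 13.6%, 15.2% and 8.54% of all did, and each of the 13 calls given for other listed genes, Nes and Vwf among them, was lost (adjusted p 0.162 to 0.446). Over all probe sets, median centering called 32 higher and 12 lower for old against young (27 and 33 as reported), 420 and 687 for old CR against old (612 and 490) and 9 and 3 for old CR against young (11 and 9). The 5 arrays per group limit precision.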
